A study of Mus musculus with 4 samples.

Results

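The genes described here are 6 transcriptional targets of p53 that act on the cell cycle: Ccng1, Cdkn1a, Btg2, Gtse1, Plk2 and Gadd45a. They were read through every non-control probe that carries one of these gene names in the scanner files, which gave 9 probes out of 41174 on the array. All 9 were bright enough to be tested, beside 21939 tested probes and 12894 tested genes in all. Gene expression was measured in whole mouse embryos, as pools of Btaf1 mutants (homozygous V1330M, a change of a single amino acid) and pools of wild-type embryos. The allele arose by mutagenesis of C57BL/6J mice, and both genotypes came from a C57BL/6J *FVB/NJ hybrid background, with 50 to 90% FVB/NJ by the labels, and embryos had 3 to 5 somites where that could be arranged. The stage_matched set paired the pools by somite number. The age_matched set gave priority to litter mates and let somite number differ by up to 5. Each set was hybridised on 2 two-colour arrays, one with the mutant in Cy5 (replicate 1) and one with the mutant in Cy3 (replicate 2). The 2 arrays of a set read the same pair of pools, so errors are SDs between the 2 set means (n = 2 sets). The number of embryos in a pool, any sharing of embryos between sets and the handling of the yolk sac are not given in the sources used here. P-values for mutant over wild type rest only on the spread between these 2 sets, which the test moderated toward a spread shared by all tested probes. Those for a difference between the sets rest on the spread between arrays with exchanged dyes.

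p53 is a transcription factor that accumulates when DNA, transcription or ribosome production is disturbed. It binds DNA as a tetramer, and its target genes slow or stop division, repair DNA, or kill the cell. In early embryos a p53 response can cause growth arrest and loss of cells. The arrest arm works at several points: p21, the product of Cdkn1a, blocks cyclin-dependent kinases, and other targets act on mitotic entry, centrosomes and messenger RNA turnover. Btaf1 encodes an ATPase of the SNF2 family that takes TBP, the protein that recognises the TATA box, off DNA.

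The promoters of the members are shown first because p53 acts on these genes through sites in DNA. RefSeq promoter windows (GRCm38.p6) were found for 6 of 6 members, 1 for each annotated start. The stretches printed are the 250 bases before the start, read 5′ to 3′ on the strand of the gene. The downstream Cdkn1a window and both Gtse1 windows are not printed, and they held none of the marked motifs in that stretch. Capitals in Ccng1, Cdkn1a and Gadd45a mark p53 decamers or a pair of them, and capitals in Btg2 and Plk2 mark the cyclic AMP response element TGACGTCA.
Ccng1 (chr11:40755287-40755536, minus strand): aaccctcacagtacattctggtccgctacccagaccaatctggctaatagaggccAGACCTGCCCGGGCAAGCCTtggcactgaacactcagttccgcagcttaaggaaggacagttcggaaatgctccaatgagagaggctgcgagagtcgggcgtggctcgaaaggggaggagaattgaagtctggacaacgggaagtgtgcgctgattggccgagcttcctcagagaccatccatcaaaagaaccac
Cdkn1a, upstream start (chr17:29090729-29090978, plus strand): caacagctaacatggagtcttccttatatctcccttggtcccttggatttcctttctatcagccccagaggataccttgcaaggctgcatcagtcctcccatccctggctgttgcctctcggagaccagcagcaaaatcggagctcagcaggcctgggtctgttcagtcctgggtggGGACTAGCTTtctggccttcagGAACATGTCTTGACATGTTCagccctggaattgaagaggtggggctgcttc
Gadd45a (chr6:67037408-67037657, minus strand): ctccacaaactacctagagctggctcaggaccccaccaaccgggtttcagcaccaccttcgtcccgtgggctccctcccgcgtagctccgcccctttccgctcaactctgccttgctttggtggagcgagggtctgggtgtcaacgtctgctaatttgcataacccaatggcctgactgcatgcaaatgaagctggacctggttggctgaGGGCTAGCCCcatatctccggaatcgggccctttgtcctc
Btg2 (chr1:134079156-134079405, minus strand): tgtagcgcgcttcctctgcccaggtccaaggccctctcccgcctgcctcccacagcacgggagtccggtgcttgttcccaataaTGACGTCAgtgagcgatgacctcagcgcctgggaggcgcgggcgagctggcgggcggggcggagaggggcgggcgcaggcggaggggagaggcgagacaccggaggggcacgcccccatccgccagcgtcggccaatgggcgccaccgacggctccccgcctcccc
Plk2 (chr13:110394794-110395043, plus strand): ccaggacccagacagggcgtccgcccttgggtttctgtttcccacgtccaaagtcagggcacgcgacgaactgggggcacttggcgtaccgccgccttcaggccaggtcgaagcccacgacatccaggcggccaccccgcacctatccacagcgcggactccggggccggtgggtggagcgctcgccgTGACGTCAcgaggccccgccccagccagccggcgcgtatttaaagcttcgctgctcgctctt

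p53 recognises pairs of a decamer built from purines, a C, A or T bases, a G and pyrimidines. A single decamer that fits this rule on either strand lay in the windows of Ccng1, Cdkn1a, Gtse1 and Gadd45a, which is 4 of 6 members. The same decamer was found in 9.55% of the 27025 genes with a window, in 9 of the 25 other p53 targets that have one, and in 0 of 13 paralogues of the members. The upstream Cdkn1a window held a second decamer at bases -73 to -64. A pair of adjoining decamers with at most 1 mismatch outside the fixed C and G occurred in 22 windows, or 0.067% of the 32851 scanned. Of these 22, 3 belonged to members. In Ccng1 it was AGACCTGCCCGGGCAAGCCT at bases -195 to -176 from the start, and in Cdkn1a it was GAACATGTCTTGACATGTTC at bases -51 to -32 of the upstream start. In Gtse1 it was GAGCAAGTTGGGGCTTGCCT at bases -1 to 19 of the downstream of 2 annotated starts. None of the windows of Plk2, Btg2 and Gadd45a held such a pair, and neither did those of the 25 other p53 targets. The limit of 1 mismatch was set after the windows had been seen. With 0 mismatches the members held 0 pairs, and with at most 2 mismatches the same 3 members held one, beside 0.326% of windows. At that looser limit 2 of the 25 other p53 targets (Trp73 and Ckap2) also held one. So did 1 of 34 G2 and mitosis genes (Kif23), and 0 of 13 paralogues. These matches are descriptions of letters in short windows, and p53 sites that lie elsewhere in a gene fall outside them.

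The TATA box TATAAA, the sequence class bound by TBP, lay in the windows of 0 of 6 members on either strand. It lay in those of 15.7% of all genes with a window. Only these exact letters were searched, and the downstream Cdkn1a window, not printed above, holds TATAAG shortly before the start. The GC box GGGCGG was present in Cdkn1a, Btg2, Plk2 and Gadd45a (38.2% of all genes), with 2 of the Btg2 matches overlapping by a base. The CCAAT box was present in Ccng1, Btg2, Gtse1 and Gadd45a (41.1% of all genes). The palindrome TGACGTCA was present in Btg2 at bases -166 to -159 and in Plk2 at bases -62 to -55 (2.03% of all genes). The cell cycle homology region TTTGAA, through which the DREAM complex represses mitotic genes, was present in 0 members and in 20.2% of all genes, against 22 of 34 G2 and mitosis genes.

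**Figure D1:**
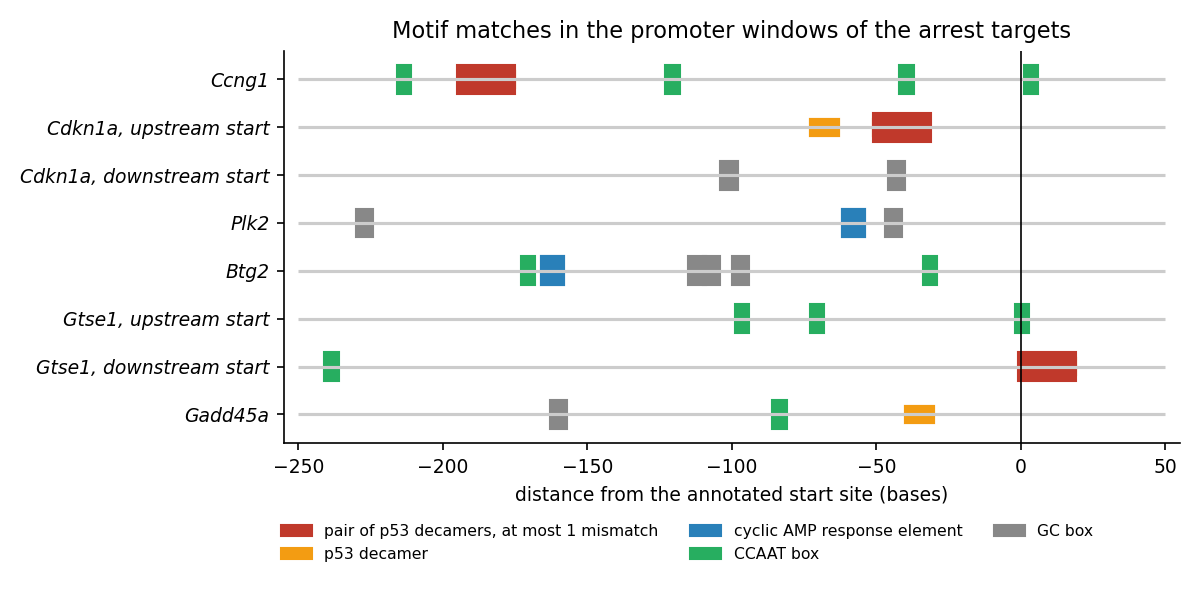
Positions of motif matches in the promoter windows of the 6 members, from 250 bases before to 50 bases after each annotated start (x axis, bases; the line at 0 is the start). Each row is 1 RefSeq window; the pairs of p53 decamers lie in Ccng1, in the upstream Cdkn1a window and in the downstream Gtse1 window.

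Of the 6 members, 3 rose in the mutant pools, Ccng1 by 3.66-fold, Cdkn1a by 2.29-fold and Plk2 by 1.57-fold. Btg2 (1.29-fold at the brightest of its probes) and Gtse1 (1.28-fold) had positive ratios on 4 of 4 arrays and did not pass the threshold. Gadd45a had a ratio near 1 (1.01-fold). A change was called where limma's moderated test on the 2 set means gave a two-sided p under 0.05 after Benjamini-Hochberg adjustment over all tested probes. Of all tested genes 1.99% were called higher and 2.67% lower, and 0 of the 6 members were called lower. Among probes, 4 of the 9 were called higher, against 1.55% of all tested probes. At an unadjusted p under 0.05, 5 members were higher and 0 lower, against 11.3% of all tested genes higher and 11.1% lower. The median log2 ratio of the members was 0.51 (stage_matched 0.50, age_matched 0.56), against 0.02 over all tested genes. A positive ratio on 4 of 4 arrays was seen for 5 of 6 members and for 14.8% of tested genes, each by its brightest probe. Both counts of 5 members include Btg2, whose other probes averaged 0.04 and -0.01. The members were chosen with earlier results of these data known. The shares of all genes are therefore a background and not a test of the group. In pools of whole embryos, more cells with a transcript and more transcript per cell cannot be told apart.

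**Figure D2:**
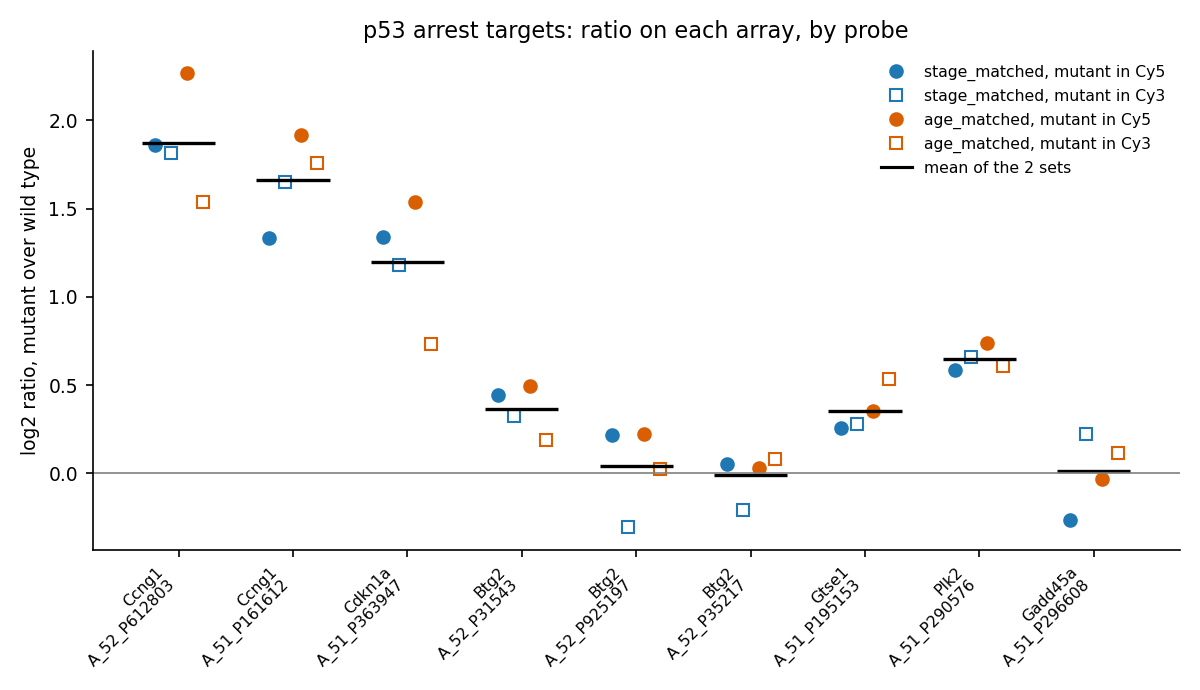
The log2 ratio of mutant over wild type (y axis) on each of the 4 arrays for the 9 probes (x axis), coloured by set, with filled circles where the mutant was in Cy5 and open squares where it was in Cy3; bars are means of the 2 sets. Both Ccng1 probes, Cdkn1a and Plk2 lie above 0 on every array, while Gadd45a and 2 of 3 Btg2 probes straddle it.

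Ccng1 encodes cyclin G1, which brings the phosphatase PP2A to Mdm2 and so feeds back on p53. Its brighter probe, A_52_P612803 (chromosome 11, 40562427 to 40562486 in mm9), gave normalised log2 signals of 11.79, 11.64, 12.20 and 12.23 in the mutant pools, against 9.93, 9.82, 9.94 and 10.69 in the wild-type pools (stage_matched replicates 1 and 2, then age_matched replicates 1 and 2). The lowest mutant signal lay above the highest wild-type signal. The age_matched replicate 2 array had the highest wild-type signal and the lowest ratio. The log2 ratios were 1.86, 1.82, 2.27 and 1.54, with a mean of 1.87 ± 0.04 (SD, n = 2 sets; 95% interval 1.66 to 2.08; limma adjusted p = 0.000726). This was the largest of the 12894 gene ratios. The second probe, A_51_P161612 (40564413 to 40564472, with its start 1986 bases from that of the first), read 1.33, 1.65, 1.92 and 1.76, with a mean of 1.66 ± 0.25 and adjusted p = 0.00109. Its mutant signals (10.71 to 11.42) also lay wholly above its wild-type signals (9.24 to 9.66). Both Ccng1 probes thus rose, and their means differed by 0.21 on the log2 scale.

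Cdkn1a encodes p21, the inhibitor of cyclin-dependent kinases that holds cells in G1. Its probe, A_51_P363947 (chromosome 17, 29237377 to 29237436), gave log2 signals of 8.56, 8.50, 8.83 and 8.06 in the mutant pools and 7.22, 7.32, 7.29 and 7.33 in the wild-type pools. The wild-type signals were nearly level, and the age_matched replicate 2 array had the lowest mutant signal. The groups did not overlap. The log2 ratios were 1.34, 1.18, 1.54 and 0.74, with a mean of 1.20 ± 0.09 (95% interval 0.98 to 1.41; adjusted p = 0.0021), which ranked it 9 of 12894 genes.

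This probe was printed at 10 spots on each array, which gave a direct reading of the error within an array. On the age_matched replicate 2 array the 10 spots ran from 0.61 to 0.87 on the log2 scale (SD 0.084). On the age_matched replicate 1 array they ran from 1.42 to 1.66 (SD 0.088). The spot ranges of these 2 arrays of the same pools did not overlap. The 9 unmarked spots of stage_matched replicate 1 ran from 1.12 to 1.45 (SD 0.098) and the 8 of stage_matched replicate 2 from 1.12 to 1.23 (SD 0.048). The difference between the arrays of the age_matched set was therefore larger than the spread between spots. Over the 167 tested probes with at least 10 spots, the median SD between spots was 0.10 (0.062 to 0.16). Without the age_matched replicate 1 array the mean for Cdkn1a was 0.998 and the call was lost (adjusted p = 0.105), and over all 14 alternatives the adjusted p ran from 0.000113 to 0.105. The scanning software's processed signals gave a mean of 1.77, and the authors' deposited table gave 1.801.

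Plk2 encodes polo-like kinase 2, which acts on centriole duplication and is also an early gene of the response to serum. Probe A_51_P290576 (chromosome 13, 111190915 to 111190974) gave log2 signals of 9.82, 10.17, 10.52 and 10.88 in the mutant pools, against 9.23, 9.52, 9.78 and 10.27 in the wild-type pools. The groups overlapped across arrays, with the signal of both genotypes varying from array to array, and the mutant was the higher on each array. The log2 ratios were 0.59, 0.66, 0.74 and 0.61, with a mean of 0.65 ± 0.04 (95% interval 0.44 to 0.86; adjusted p = 0.0163), and Plk2 ranked 65 of 12894. The call was lost without the age_matched replicate 1 array (0.62, adjusted p = 0.188) and without background correction (0.61, adjusted p = 0.0616).

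**Figure D3:**
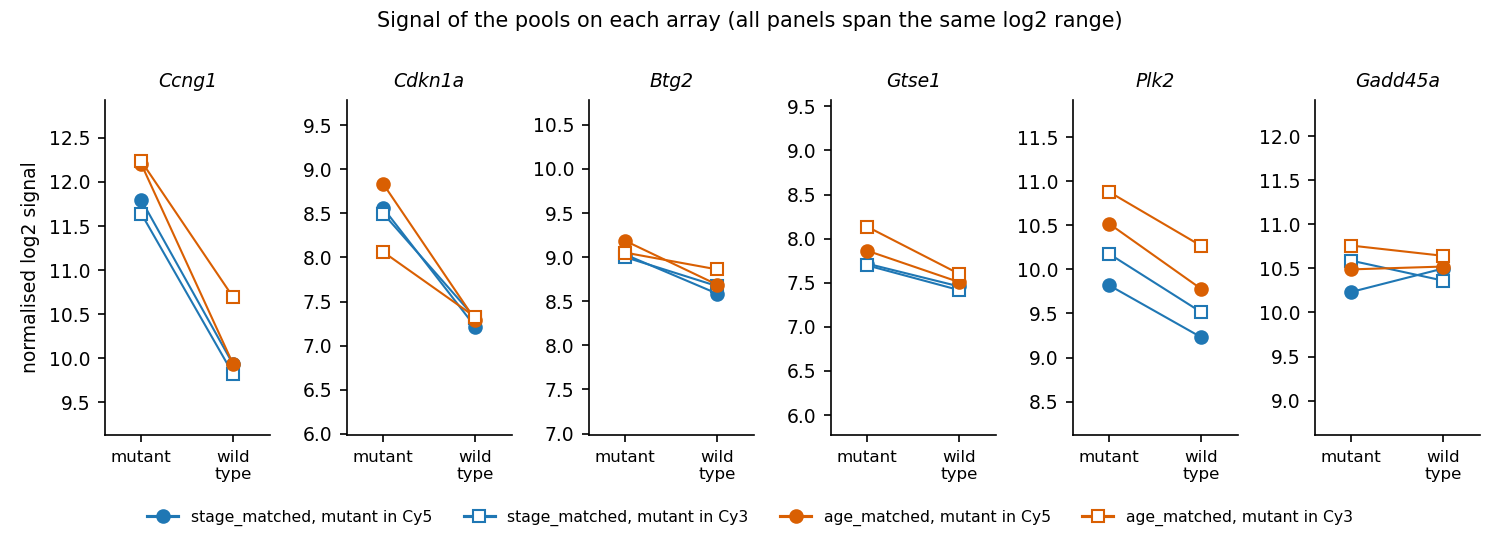
Normalised log2 signal (y axis) of the brightest tested probe of each member in the mutant and wild-type pools, with a line joining the 2 channels of 1 array. Colours give the set and symbols the dye of the mutant; all panels span the same log2 range. Mutant signals lie above all wild-type signals for Ccng1, Cdkn1a, Btg2 and Gtse1, and overlap with them for Plk2 and Gadd45a. At the other Btg2 probes, not drawn, the groups overlapped. Each pool was read on 2 arrays, and the share of all tested genes without overlap was not counted.

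Btg2 encodes an antiproliferative protein that brings the CCR4-NOT deadenylase to messenger RNAs and marks neural progenitors about to differentiate. Its 3 probes disagreed. The brightest, A_52_P31543 (chromosome 1, 135972094 to 135972153), read 9.03, 9.0, 9.18 and 9.05 in the mutant pools and 8.59, 8.67, 8.69 and 8.86 in the wild-type pools. The groups did not overlap. The log2 ratios were 0.44, 0.33, 0.50 and 0.19, with a mean of 0.36 ± 0.03 (95% interval 0.15 to 0.57; adjusted p = 0.0654). Probe A_52_P925197, whose start lies 1822 bases away, read 0.22, -0.30, 0.22 and 0.03, with a mean of 0.04 ± 0.12 (adjusted p = 0.840). Probe A_52_P35217, 2087 bases away, read 0.05, -0.21, 0.03 and 0.08, with a mean of -0.01 ± 0.09 (adjusted p = 0.964). At both of these probes the mutant and wild-type signals overlapped. With processed signals the brightest probe averaged 0.49 (adjusted p = 0.0468). The positive value of Btg2 thus rested on 1 of 3 probes, and the mean over all 3 was 0.13 (adjusted p = 0.445). Which transcripts each probe reads is not given in the sources used here.

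Gtse1 encodes a microtubule-associated protein of G2 and S phase that binds p53 and moves it out of the nucleus. Probe A_51_P195153 (chromosome 15, 85706887 to 85706946) gave log2 signals of 7.72, 7.70, 7.86 and 8.13 in the mutant pools, against 7.46, 7.42, 7.51 and 7.60 in the wild-type pools. The lowest mutant signal was above the highest wild-type signal. The log2 ratios were 0.26, 0.28, 0.36 and 0.53, with a mean of 0.36 ± 0.12 (95% interval 0.14 to 0.58; adjusted p = 0.0775). Unlike Cdkn1a and the brightest Btg2 probe, Gtse1 had its highest ratio on the age_matched replicate 2 array. With processed signals its mean was 0.59 (adjusted p = 0.0284) and from the authors' deposited table it was 0.62 (adjusted p = 0.0185), both past the threshold.

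Gadd45a encodes a small stress protein that binds PCNA and the mitotic kinase CDK1. Probe A_51_P296608 (chromosome 6, 66985376 to 66985435) gave log2 signals of 10.23, 10.59, 10.49 and 10.76 in the mutant pools and 10.498, 10.36, 10.52 and 10.64 in the wild-type pools. The groups overlapped. The log2 ratios were -0.27, 0.23, -0.03 and 0.12, negative on both arrays with the mutant in Cy5 and positive on both with it in Cy3. The mean was 0.01 ± 0.04 (95% interval -0.20 to 0.22; adjusted p = 0.957). Its sign turned with the setting, from -0.11 to 0.13, with 0 calls.

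The mutant effect was also compared between the sets, as the stage_matched minus the age_matched ratio. Over all tested probes 2.46% passed the threshold for this difference, and 0 of the 9 member probes did (limma on 4 arrays). At an unadjusted p under 0.05, 1 member probe did, the second probe of Ccng1 (-0.35, adjusted p = 0.412). The difference was -0.06 for the brighter Ccng1 probe, 0.13 for Cdkn1a, -0.05 for Plk2, 0.04 for Btg2, -0.18 for Gtse1 and -0.06 for Gadd45a, each with an SE of 0.18. That error comes from the spread between arrays with exchanged dyes, pooled by limma over all tested probes, and holds no variation between embryos. It was nearly the same for every member (0.1751 to 0.1756), so it does not measure the spread of a single probe.

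At the brightest probes, the array with age_matched replicate 1 gave the highest ratio of the 4 for Ccng1, Cdkn1a, Plk2 and Btg2. The age_matched replicate 2 array gave the lowest there for Ccng1, Cdkn1a and Btg2. The second Ccng1 probe was instead lowest on stage_matched replicate 1 (1.33). The other Btg2 probes were lowest on stage_matched replicate 2 (-0.30 and -0.21). On the age_matched replicate 2 array 52.9% of spots in the mutant channel cleared the background, against 56.2 to 59.6% in the mutant channel of the other arrays and 57.1 to 59.5% in the wild-type channels. Over all tested probes, ratios correlated at 0.71 between the replicate 1 arrays and 0.42 between the replicate 2 arrays. Within a set, where the same pools were read with the dyes exchanged, they correlated at 0.39 (stage_matched) and 0.16 (age_matched). The fit of the 4 arrays held a dye term, which is positive where ratios were higher with the mutant in Cy5. On the log2 scale it was 0.24 for Cdkn1a and, at the brightest probes, 0.19 for Ccng1 and 0.11 for Btg2. For Plk2 it was 0.01, for Gtse1 -0.05 and for Gadd45a -0.16. These dye terms were estimated and not tested.

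**Figure D4:**
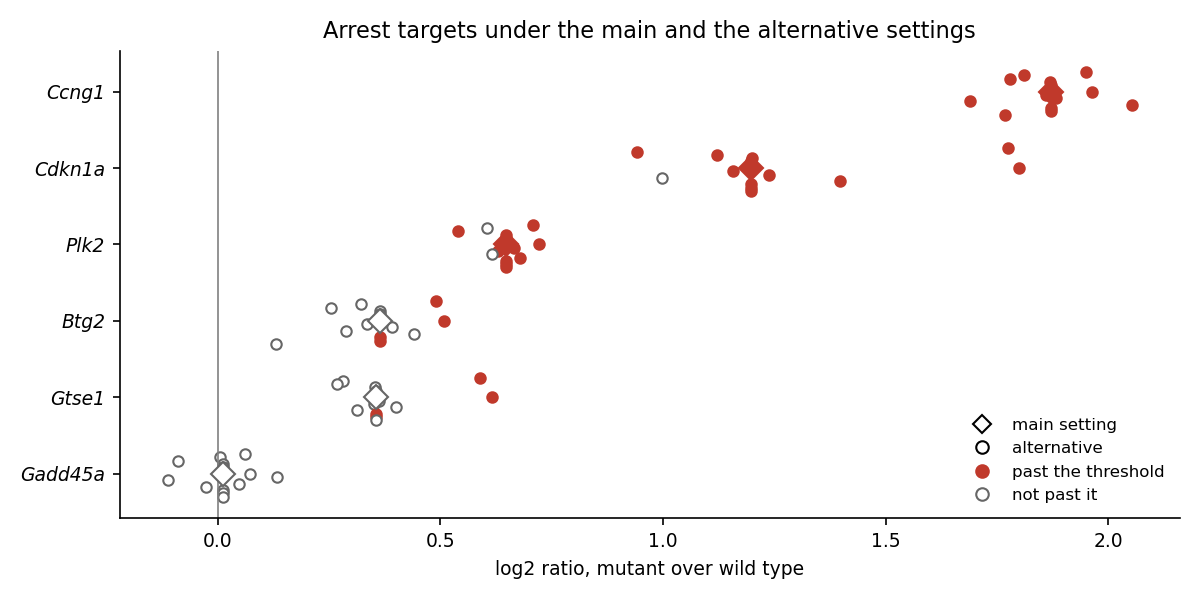
The mean log2 ratio of mutant over wild type (x axis) of each member under the main setting (diamond) and the alternative settings (circles), filled where the adjusted p was under 0.05. Ccng1 stayed past the threshold in every setting that was run, and Gadd45a in none.

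Paralogues of the members were set beside them, since they share structure and in part function. Of 14 listed, 13 were tested, of which 0 were called higher and 1 lower (0 and 3 at an unadjusted p under 0.05), with a median log2 ratio of 0.02. Cdkn1c, which encodes the p21 relative p57 and is imprinted, had log2 ratios of -0.59, -0.70, -0.61 and -0.47, with a mean of -0.59 ± 0.07 (adjusted p = 0.0213). All 4 of its ratios were negative, opposite to Cdkn1a. Its call was lost without background correction and without the age_matched replicate 1 array (adjusted p up to 0.232). Cdkn1b (p27, the third of these inhibitors) averaged -0.13 ± 0.23.

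Among the cyclin G1 relatives, Ccng2 averaged -0.09 ± 0.15 and the brightest Ccni probe 0.02 ± 0.06, with the other Ccni probes at -0.34, -0.05 and -0.14. In the BTG and TOB family of deadenylase adaptors, Btg1 averaged 0.06 (second probe -0.09), Btg3 0.06, Tob1 0.12 and Tob2 -0.03 (second probe -0.43), and Btg4 did not pass the filter on dim probes. None of these passed the threshold. Of the polo-like kinases, Plk1, which drives mitosis, averaged -0.25, Plk3 0.15 and Plk4 0.05 (second probe -0.32). Gadd45b averaged 0.20 (second probe -0.06) and Gadd45g -0.34 ± 0.17 (adjusted p = 0.0975), with Gadd45g negative on 4 of 4 arrays.

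The p53 targets outside the arrest group, with roles in death, metabolism and repair, were next. Of 34 listed, 31 were tested, of which 6 were called higher and 0 lower (16 and 1 at an unadjusted p under 0.05), with a median of 0.22. Over all tested genes 11.3% were higher and 11.1% lower at that unadjusted threshold. The 6 were the death receptor gene Eda2r (1.74 ± 0.01), Trp53inp1 (1.65 ± 0.04), the BH3-only killer gene Pmaip1 (1.601 ± 0.40), the AKT inhibitor gene Phlda3 (1.49 ± 0.43), Zmat3 (0.97 ± 0.41) and a second BH3-only gene, Bbc3 (0.72 ± 0.34). Of 13 alternatives, the Bbc3 call was lost in 3, the Zmat3 call in 2, and those of Eda2r, Trp53inp1, Pmaip1 and Phlda3 in 0. All these values come from the same arrays as those of the members, and this list too was chosen with earlier results known. A further 10 genes through which p53 is known to slow division had a median of 0.08, with 0 called (3 higher and 0 lower at an unadjusted p under 0.05). Their largest values were 0.31 for Dact1 and Prdm1 and 0.26 for Rprm, and Sfn, a G2 arrest gene of epithelia, averaged -0.01.

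Downstream of p21 lies the DREAM complex, which represses genes of G2 and mitosis when p21 is induced. Of 43 such genes tested, 0 were called higher and 3 lower (2 and 14 at an unadjusted p under 0.05), and 29 had a negative ratio, as did 45.8% of all tested genes. Those called were Cenpa, the centromeric histone (-0.67), Cdc25c, the phosphatase that triggers mitosis (-0.55), and Top2a, which untangles DNA (-0.45). The median of the list was -0.09, with medians of -0.02 for stage_matched and -0.14 for age_matched pools. All 3 calls were lost without the age_matched replicate 1 array and without background correction. Over 13 alternatives Cenpa ran from -0.80 to -0.55 and lost its call in 2, Cdc25c ran from -0.75 to -0.35 and lost it in 4, and Top2a ran from -0.52 to -0.40 and lost it in 6. The G1/S genes under E2F had a median of -0.21, with 17 of 20 negative and 0 called. At an unadjusted p under 0.05, 0 were higher and 7 lower, against the 11.1% of all tested genes that were lower.

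Of the cyclin D, CDK, RB and DREAM genes themselves, 17 of 21 were tested, with a median of 0.05 and 1 call. Ccnd2, a D-type cyclin of the G1 phase, averaged -0.89 ± 0.55 (adjusted p = 0.0302), with log2 ratios of -0.45, -0.55, -1.33 and -1.23. It was lower on 4 of 4 arrays, and the age_matched arrays gave the larger falls. Of 13 alternatives, the Ccnd2 call was lost in 3.

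Plk2, Btg2 and Gadd45a can also be induced by growth factors or stress, so immediate early genes were read beside them. Of 21 listed, 18 were tested and 0 were called (0 higher and 8 lower at an unadjusted p under 0.05), with 15 negative ratios and a median of -0.12. The shares of all tested genes were 11.1% lower at that threshold and 45.8% negative. Fos averaged -0.08, Jun -0.11, Atf3 -0.24 and Egr1 -0.27.

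**Figure D5:**
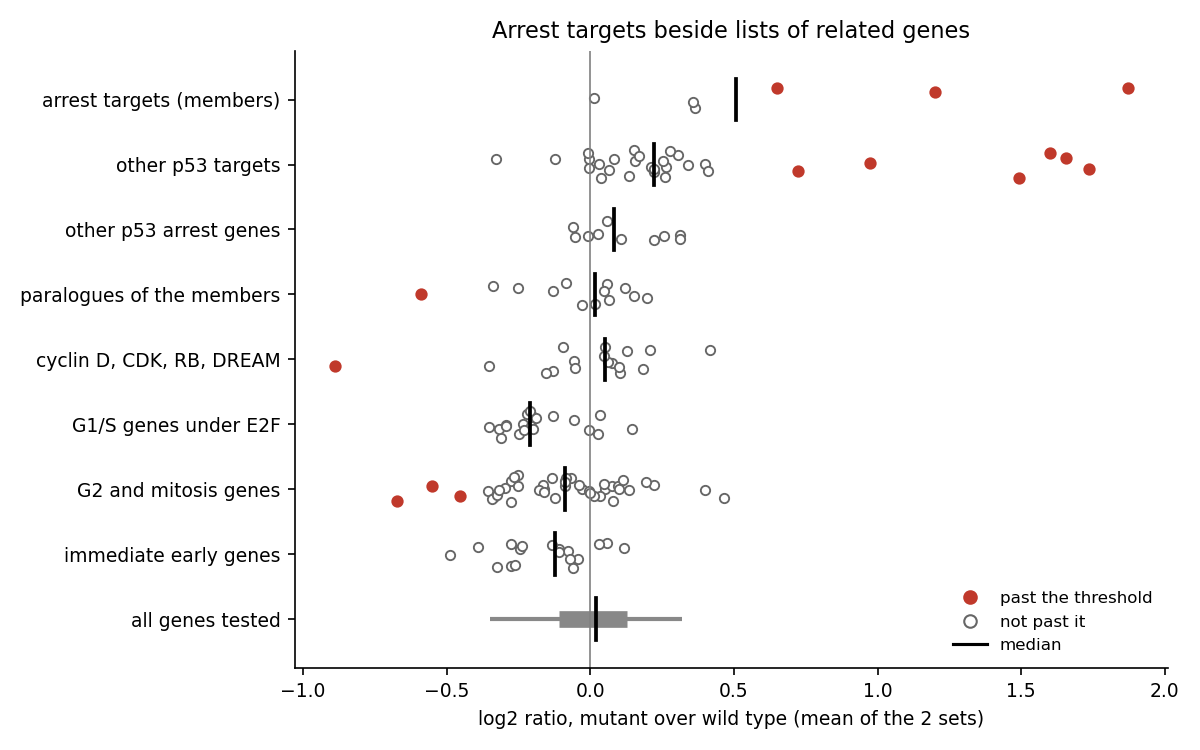
The log2 ratio of mutant over wild type (x axis, mean of the 2 sets) for each tested gene of the members and of 7 related lists, filled where the adjusted p was under 0.05; vertical bars are medians. The lowest line gives all tested genes (thick bar, middle 50%; thin line, 5th to 95th percentile). Calls are to the right for the members and other p53 targets and to the left in the lists of paralogues, cyclin D genes and mitotic genes.

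The transcript of p53 itself did not pass the threshold. The brighter Trp53 probe read -0.48, -0.44, -0.07 and 0.52, with a mean of -0.12 ± 0.48 (adjusted p = 0.707), and a second probe averaged 0.05. The 2 sets lay on opposite sides of 0 at the brighter probe alone. Btaf1, whose mutant allele is a missense change, averaged 0.10 ± 0.03 (adjusted p = 0.554), and the probe does not read the allele, so its level does not check the genotype labels.

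The pattern over the 4 arrays was also matched to all other tested genes by Euclidean distance of the log2 ratios, each gene by its brightest probe, as a description with no test. Nearest to Ccng1 were Trp53inp1 (distance 0.55) and Eda2r (0.58), both in the list of p53 targets. Nearest to Cdkn1a were Ddit4l (0.38; mean ratio 1.20), an inhibitor of mTOR signalling, and Neto2 (0.56; 0.97). Plk2 lay nearest to Khk (0.11) and to Defa31 (0.16), whose family holds near-identical copies. Closest to Btg2 were Ell3 (0.062) and H2-DMb1 (0.081), to Gtse1 Rabgap1l (0.067) and Wdr31 (0.074), and to Gadd45a Trpm7 (0.063) and Sphk1 (0.066). Genes with small ratios have many near neighbours, so short distances there carry little information. Ccng1 had the largest ratio of all tested genes, so its nearest genes come from the other large rises. The list of p53 targets was also chosen with earlier results of these data known.

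Markers of other cell types differed between the pools. All 6 of 6 visceral endoderm and yolk sac markers were lower in the mutant, led by Apoa1 (-1.64), Rbp4 (-1.49), Afp (-1.43) and Amn (-1.07). Their summed normalised signal ran from 18437 to 20635 in the mutant pools, against 48556 to 57160 in the wild-type pools. Over 13 alternatives the call was lost in 5 for Ttr, 3 for Apob and 1 for Amn, and in 0 for Afp, Apoa1 and Rbp4. Of 12 markers of the early-somite embryo, 11 were tested and 2 were called higher, the mesoderm genes Tbx6 (0.89) and Meox1 (0.41). None were called lower, and the ratios were positive for 6 and negative for 5. The negative ones were Sox2 (-0.14), Pax6 (-0.15), Otx2 (-0.16), Nkx2-5 (-0.18) and Hoxb1 (-0.05). Of 13 alternatives, the Meox1 call was lost in 10 and the Tbx6 call in 3. The embryo markers' summed signal ran from 16015 to 24200 in the mutant and from 14815 to 16316 in the wild-type pools. Trophoblast markers (3 of 6 tested, summed signal 1713 to 2280 in mutant and 2059 to 2476 in wild type) and decidual markers (5 of 6 tested, 1899 to 2909 in mutant and 2411 to 2936 in wild type) gave 0 calls, with 0 and 2 lower at an unadjusted p under 0.05. The trophoblast genes Tpbpa and Gcm1 did not pass the filter on dim probes. In both lists a marker had opposite signs in the 2 sets. Prl3d1, a trophoblast giant cell hormone, had a mean log2 ratio of -0.39 in stage_matched and 0.49 in age_matched pools (adjusted p of the difference = 0.000178), and the decidual hormone Prl8a2 had -0.94 and 0.51 (adjusted p = 3.3e-12).

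Red cell markers (3 tested: Hbb-b1, Hba-a1 and Alas2) gave 0 calls over both sets (0 higher and 1 lower at an unadjusted p under 0.05), but the sets differed. In stage_matched pools their summed signal was 1623 and 1263 in the mutant, against 2909 and 2901 in the wild type. In age_matched pools it was 5183 and 3804 in the mutant, against 3143 and 3846 in the wild type. The adult beta globin probe A_51_P374476, Hbb-b1 in the files and Hbb-bt in RefSeq, whose similar copies may share signal, had mean log2 ratios of -1.35 in stage_matched and 0.91 in age_matched pools (adjusted p of the difference = 6.4e-29). Hba-a1 had -0.96 and -0.32 (adjusted p = 0.0192). The part of these shifts in the ratios of the members was not tested.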

How the data were processed

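Gene expression was measured on 4 two-colour Agilent whole mouse genome arrays (300 ng of RNA per dye, per the labels). Spot and background intensity came from the scanner, and the processed intensity columns were background-subtracted and dye-normalised, per the file headers. In the value table that the authors deposited, each entry is the scanner's log10 ratio with the sign turned on dye swaps (within 5e-06; median 0 on each array). All 4 of its columns were assigned and 0 were not. Feature Extraction was version 9.5.3 by the labels and 10.5.1.1 by the headers. All arrays shared 1 slide and 1 scan.

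From the unprocessed intensities, marked spots (111 to 177 of 43379 per array) were dropped, background was corrected (normexp, offset 50), dye bias was removed by loess within arrays, and spots were averaged per probe (limma 3.58.1, R 4.3.3). The sign was turned so that each log2 ratio is mutant over wild type. Probes well above background in 1 genotype on all 4 arrays were tested (21939; 36 more had a marked spot). Set means were tested with limma (1 residual and 6.90 prior degrees of freedom). The set difference was fitted on 4 arrays with terms for set and dye, and its error was pooled by limma over all tested probes. The number of arrays limits the precision. Each gene is represented by its brightest tested probe, whatever its ratio. Probe positions (mm9) were copied from the files; no annotation of that build was used. Promoters and names are from RefSeq (GRCm38.p6). Tests were checked on simulated data.

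The members and gene lists were chosen with earlier results of these data known. All probes of the members and all their paralogues were named; of other lists, the called genes (up to 4 per direction, plus small groups a count singled out and some chosen after their values were seen, such as Fos, Jun, Dact1 and Rprm), Trp53, Btaf1 and the 2 nearest genes to each member. The alternatives varied background correction, normalisation, the filter on dim probes, the probe rule, the arrays used and the source table, and fits of the 4 arrays with the set as a random block or, added after seeing the data, with the dye orientation as a replicate block.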

Additional observations from a re-analysis of the deposited data

Results flagged for a closer look

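Of 70 probes of the members, their paralogues, the regulators, called list genes and cell type markers, 12 passed the threshold of 0.05 on the adjusted p for a difference between the sets of pools (limma on 4 arrays), and none of the 12 belonged to an arrest target. Differences are the stage_matched minus the age_matched log2 ratio, with an SE of 0.18 each, and the pairs of values give stage_matched pools first. Ccnd2 differed by 0.78, with stage_matched pools at -0.50 and age_matched pools at -1.28 (adjusted p = 0.00142). Its other 2 probes differed by 0.73 and 0.79. Tbx6 differed by -0.73 (0.52 and 1.25, adjusted p = 0.00386). The brighter Trp53 probe differed by -0.68 (-0.46 and 0.23, adjusted p = 0.00913), while its second probe differed by -0.03. Phlda3 differed by -0.60 (1.19 and 1.79, adjusted p = 0.0306) and Zmat3 by -0.58 (0.68 and 1.26, adjusted p = 0.0418). Of the paralogues, the second Tob2 probe differed by -0.89 (-0.87 and 0.02, adjusted p = 0.00014) and the second Btg1 probe by 0.58 (0.20 and -0.38, adjusted p = 0.046), while the brightest Tob2 and Btg1 probes did not pass (adjusted p = 0.881 and 0.395). Of the markers, the adult beta globin probe (Hbb-bt, Hbb-b1 in the files) differed by -2.26 (-1.35 and 0.91, adjusted p = 6.4e-29), the decidual hormone gene Prl8a2 by -1.45 (-0.94 and 0.51, adjusted p = 3.3e-12) and the trophoblast gene Prl3d1 by -0.88 (-0.39 and 0.49, adjusted p = 0.000178). Hba-a1 differed by -0.64 (-0.96 and -0.32, adjusted p = 0.0192) and the mesoderm gene T by -0.62 (0.10 and 0.72, adjusted p = 0.025). These calls rest on technical error alone, without any measure of how embryos vary. That error was pooled over all tested probes, so the p-values do not measure the spread of each probe. The second Btg1 probe passed although its stage_matched arrays read -0.41 and 0.81.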

How the results depend on the processing

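The number of arrest targets called higher was 3, and it was 5 with the software's processed signals, 5 with the authors' deposited value table, 5 with the 4 arrays and the set as a random block (consensus correlation -0.37), 2 with no background correction, and 1 to 3 when each array in turn was left out, with 1 without age_matched replicate 1. Btg2 (0.49, adjusted p = 0.0468 with processed signals) and Gtse1 (0.59, adjusted p = 0.0284) made up the added calls. Probes past the threshold numbered 996, against 1666 with processed signals, 1824 with the deposited table, 2583 with the random block, 561 when dim probes were kept and 62 with no background correction. Leaving out an array, which leaves 1 set with a single dye orientation, gave 23 (without age_matched replicate 1) to 1234 probes, with 565 without stage_matched replicate 1 and 592 without age_matched replicate 2. The causes were not tested. Of the calls, 34.2% were higher, and 12.96% when median centring replaced loess. The other p53 targets called higher ran from 4 to 7 over these alternatives and 11 with the random block, and the G2 and mitosis genes called lower from 0 to 3 and 6. Over 552 recalculated values of single genes, 495 stayed on their side of the threshold, 47 lost a call, 10 gained one and 0 reversed a called value. No member probe passed the threshold for the difference between the sets under any alternative run. The replicate numbers mark the dye orientation. Arrays with the same number correlated at 0.71 and 0.42 over probes. A replicate block on the 4 arrays, chosen after seeing the data and counting the arrays of a set separately, gave 5 arrest targets called higher and 1984 probes past the threshold, with 9 other p53 targets higher and 5 G2 and mitosis genes lower.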
